A study of Mus musculus with 108 samples.

Results

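The genes described here are 44 genes of the cell cycle and of DNA replication, read in the brains of mice that carry 1 mutant copy of Cul3 and of their wild-type (WT) controls. The members were given as a list of symbols with known roles in the cell cycle, drawn up with earlier results of these data known, and all 44 were found among the 53465 genes of the count table. Whole-tissue RNA was sequenced from 3 brain regions, the cortex (CX), the hippocampus (HIP) and the cerebellum (CB), in embryos labelled E17.5, in pups at postnatal day 7 (P7) and in adults labelled P35. The mice were on the C57BL/6N background, spelled C56Bl/6N in the labels. Mutant mice (Cul3+/-) were heterozygous for a frameshift allele made by CRISPR/Cas9, and the line descends from 1 founder that was crossed to WT mice over generations, so that every cell of the body carries the allele and no other line was sampled. WT mice carried 2 intact copies. Each library held RNA from 1 region of 1 mouse and each mouse gave 1 library per region. There were 6 mice of each genotype at E17.5 and P7, and 5 of each in adults after 2 adult mice were left out because their labels and the quality table of the study gave opposite genotypes. In all 102 of 108 libraries were used, with 15126114 to 44411282 counts per library over all 108.

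A dividing cell first licenses its origins of replication, by loading the MCM helicase with the help of Cdc6 and Cdt1, and then copies its DNA with the clamp Pcna and with nucleotides made by ribonucleotide reductase and thymidylate synthase. Cyclins bound to cyclin-dependent kinases drive the steps from one phase to the next, and the anaphase-promoting complex (APC/C) destroys mitotic cyclins when the spindle checkpoint is satisfied. In the mouse brain the progenitors of cortical neurons divide before birth, whereas the granule cell precursors of the cerebellum divide mostly in the first postnatal weeks, and in adults division goes on in the dentate gyrus and among oligodendrocyte precursors. Cul3 is the scaffold of a family of ubiquitin ligases, and cyclin E is among the proteins that these ligases are known to target.

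Transcription of such genes is known to be shared out between 2 promoter elements. E2F sites are typical of genes used in S phase, and the cell cycle genes homology region (CHR), often placed near CCAAT boxes, is typical of genes used in G2 and mitosis. Windows of 300 bases (250 before to 50 after the annotated start) from RefSeq on GRCm38.p6 were found for 37 of the 44 members, in 40 windows, and were searched on both strands. The CHR letters were TTTGAA and TTTAAA, the E2F letters TTTCCCGC, TTTCGCGC, TTTGCCGC and TTTGGCGC, and the CCAAT box CCAAT. A CHR was present in 27 of the 40 member windows (67.5%), against 27.6% of all 32851 windows. E2F letters were present in 8 member windows (20% against 2.26%) and CCAAT in 33 (82.5% against 37.4%). Only the Cdk1 and Mcm5 windows held all 3 kinds, as did 0.177% of all windows, and these 2 are printed for that reason, as exceptions that stand for no role. Capitals mark the matched letters. Cdk1, the kinase that starts mitosis (ENSMUSG00000019942), has its window at chr10:69352863-69353162 on the minus strand, and Mcm5, a subunit of the replicative helicase (ENSMUSG00000005410), at chr8:75109259-75109558 on the plus strand.
Cdk1: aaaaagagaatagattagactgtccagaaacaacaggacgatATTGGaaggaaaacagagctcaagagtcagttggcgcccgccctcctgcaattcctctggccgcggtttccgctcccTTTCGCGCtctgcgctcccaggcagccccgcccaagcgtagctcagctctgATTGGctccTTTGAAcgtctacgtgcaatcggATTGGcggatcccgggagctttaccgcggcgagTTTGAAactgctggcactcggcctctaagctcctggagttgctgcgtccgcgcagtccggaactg
Mcm5: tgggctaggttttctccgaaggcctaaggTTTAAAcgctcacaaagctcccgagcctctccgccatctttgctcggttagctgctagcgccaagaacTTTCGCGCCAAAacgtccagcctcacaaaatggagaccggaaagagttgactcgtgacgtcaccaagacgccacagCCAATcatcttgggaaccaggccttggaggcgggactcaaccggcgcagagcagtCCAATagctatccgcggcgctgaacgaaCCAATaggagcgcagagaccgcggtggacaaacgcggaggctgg

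In the Cdk1 window the 2 CHR matches lie at −71 and −15 from the start, 3 CCAAT boxes read on the opposite strand at −208, −80 and −48, and the E2F letters at −131. In the Mcm5 window the E2F letters at −153 and, on the opposite strand, at −149 overlap each other, the CHR letters (TTTAAA, which read the same on both strands) lie at −221, and CCAAT boxes lie at −77, −22 and 6. Over the members the motifs divided by role. Among the 19 windows of mitotic genes (spindle checkpoint, mitotic kinases, centromere, spindle and mitotic entry) 17 held a CHR, 17 a CCAAT box and 0 the E2F letters. Among the 12 windows of replication genes (MCM helicase, origin licensing, clamp and nucleotide supply) 3 held a CHR, 9 a CCAAT box and 6 the E2F letters. E2f1, Nusap1 and Tyms held none of the 3, as did 44.7% of all windows. A match of letters is a description of the window and was not read as binding.

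Levels are given as CPM, counts scaled to the TMM-normalized library size, and compared between genes only as TPM, which also allow for gene length. Mki67, the Ki-67 antigen of cycling cells (ENSMUSG00000031004), stood at 108 CPM in the lowest, 141 in the median and 293 in the highest of the 6 WT CX libraries at E17.5. At P7 it stood at 19.9, 27.3 and 33.9 CPM. In the 5 adult WT mice it was 4.29, 4.92, 4.21, 3.12 and 2.45 CPM. The 3 periods did not overlap in CX. In HIP the lowest, median and highest were 151, 202 and 266 CPM at E17.5 and 36.6, 43.5 and 49.4 CPM at P7, and the adult mice had 3.56, 4.05, 5.00, 5.13 and 4.38 CPM. In CB they were 197, 235 and 258 CPM at E17.5 and 298, 353 and 393 CPM at P7, and the adult mice had 0.712, 0.989, 1.74, 1.77 and 1.05 CPM. Mki67 was thus highest in CB at P7 and lowest in CB in adults, with no overlap between the periods in any of the 3 regions.

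Per length, Pcna was the most abundant member in all 9 combinations of period and region, at 70.0 TPM in E17.5 CX, 132 TPM in P7 CB and 25.2 TPM in adult HIP. Mcm6, another helicase subunit, came second in E17.5 HIP (56.1 TPM), and Top2a, the topoisomerase that untangles replicated DNA, came second in P7 CB (82.1 TPM). E2f8, a repressor among the E2F factors, was last in 8 of the 9, at 1.91 TPM in E17.5 CX and 0.0334 TPM in adult CB, and Gins2 was last in P7 CB at 4.83 TPM. The median member stood at 10.1, 2.61 and 0.597 TPM in CX at E17.5, P7 and P35, at 15.9, 3.30 and 0.643 TPM in HIP, and at 17.9, 22.8 and 0.372 TPM in CB. In adults 31 members in CX, 32 in HIP and 30 in CB were under 1 TPM, and second place there fell to a cyclin E or to Mcm6: Ccne1 in CX (6.56 TPM), Mcm6 in HIP (7.79 TPM) and Ccne2 in CB (10.2 TPM).

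**Figure D1:**
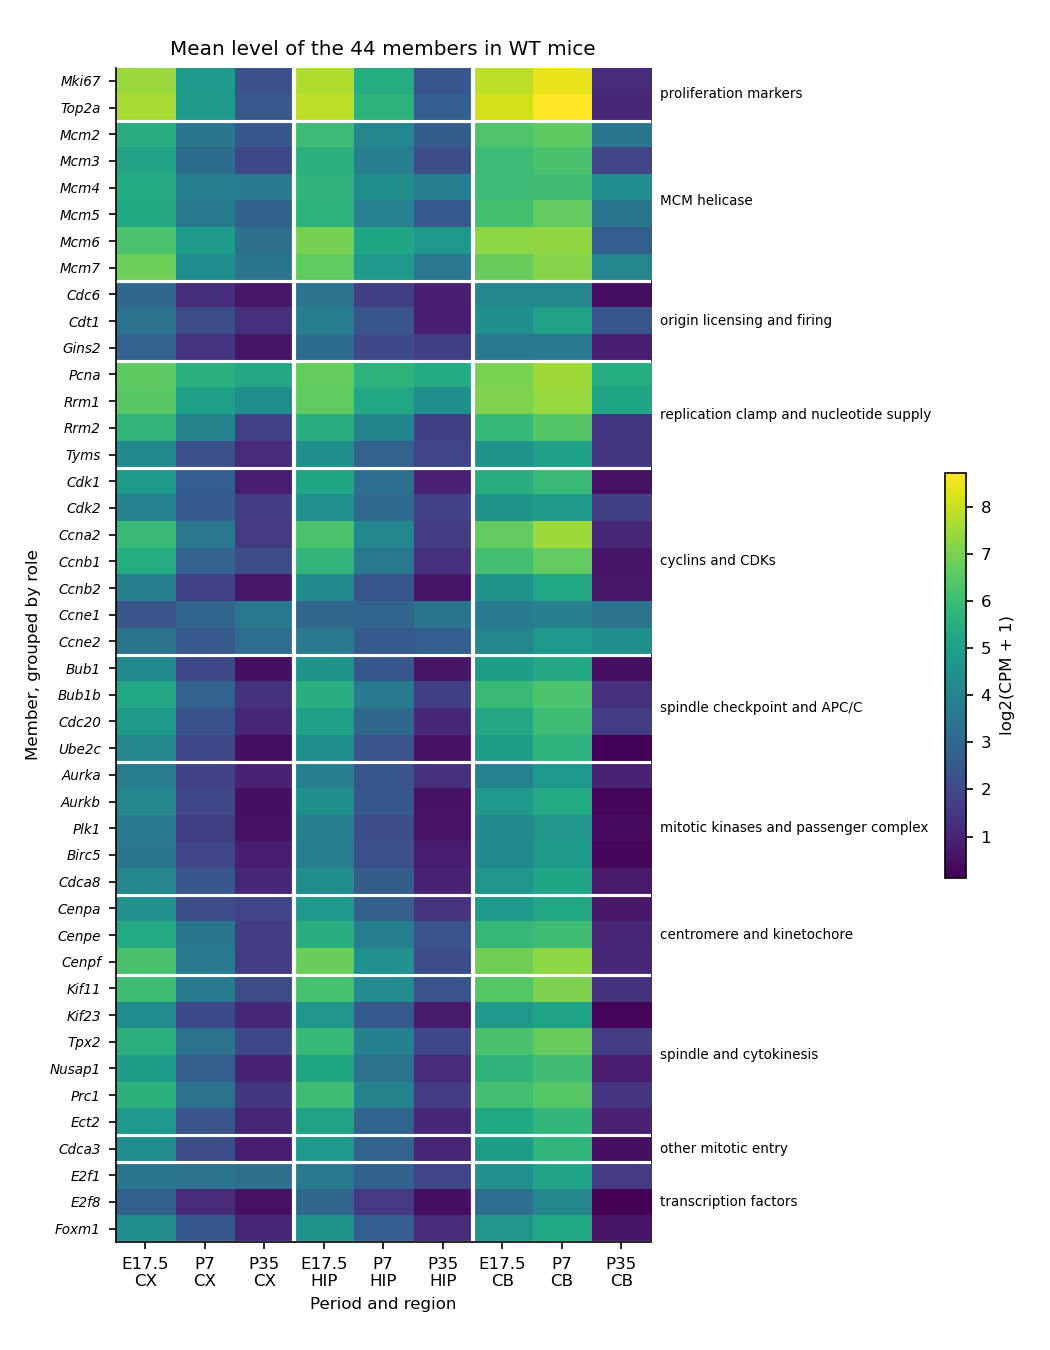
Mean level of the 44 members in WT mice as log2(CPM + 1), in colour, for the 9 combinations of period and region in columns and members in rows grouped by role. CX and HIP columns darken from E17.5 to P35, whereas the CB columns stay bright at P7 (Mki67 mean 347 CPM) and are darkest at P35 (1.25 CPM).

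The first comparison asked how the members changed with age in WT mice. In CX 42 of 44 members were lower at P7 than at E17.5 at an adjusted p under 0.1 (edgeR's quasi-likelihood test, Benjamini-Hochberg adjustment over all genes tested), where 40.6% of the 18620 genes tested were lower. All 42 were lower by more than 2-fold, against 14.5% of all genes, and the median log2 fold change was −2.36 where that of all genes was 0.01. Ccne1 rose (0.62, SE 0.19, adjusted p = 0.00601) and E2f1 was not called (−0.16, SE 0.16). In whole-tissue RNA, fewer cycling cells and less RNA per cycling cell cannot be told apart. The names of the mice also begin differently at each period, so that any difference in handling between the periods cannot be told apart from age.

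By role, the proliferation markers Top2a and Mki67 fell by 2.86 (SE 0.24) and 2.74 (SE 0.25) on the log2 scale. Of the spindle checkpoint and APC/C genes, Cdc20, which activates the APC/C, fell by 2.82 and the least changed, the ubiquitin-conjugating enzyme Ube2c, by 2.6. Among cyclins, Ccnb1, the main mitotic cyclin, fell by 2.86. The centromere and spindle genes fell by between 2.03 (Cenpe, a kinetochore motor) and 2.74 (Cenpf), and the mitotic kinases and their passenger proteins by between 1.91 (Cdca8) and 2.59 (Aurkb). The 13 replication members had a median of −1.86 and the 19 mitotic members one of −2.57, a difference that was not tested. Mcm7 fell by 2.61, Cdc6 by 2.35, Tyms, thymidylate synthase, by 2.30, and Pcna by 1.07.

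From P7 to P35 in CX 39 members fell further (background 34.5%), 34 of them more than 2-fold (background 11.6%), with a median of −1.70. Ube2c fell by 2.96 and Aurkb, the kinase of the chromosomal passenger complex, by 2.84. Both E cyclins, which pair with Cdk2 at the start of S phase, rose: Ccne1 by 0.77 (SE 0.19, adjusted p = 0.00187) and Ccne2 by 0.80 (SE 0.19, adjusted p = 0.00111). Mcm4 (−0.21), E2f1 (−0.08) and Cenpa (−0.31) were not called. The replication members had a median of −1.15 and the mitotic members one of −1.98 over this interval. In all, adult CX held a median of 6.80% of the E17.5 level over the members.

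HIP resembled CX in direction. From E17.5 to P7 43 members were lower (background 39.0%), 42 more than 2-fold (background 13.1%), with a median of −1.98, and Ccne1 was the member not called (−0.04, SE 0.14). From P7 to P35 42 were lower (background 31.4%), 37 more than 2-fold (background 10.4%), with a median of −2.30. Cdk1, Aurkb and Mki67 each fell by 3.26 over the second interval, whereas Pcna fell by 0.23, Gins2, which helps to start the replisome, by 0.43 and Mcm6 by 0.48. Ccne1 rose again (0.61, SE 0.15, adjusted p = 0.00158), and Ccne2 was not called (0.19). The mitotic members had a median of −2.58 and the replication members one of −1.24. E2f8 and Ube2c did not pass the low-count filter in adult HIP alone and entered this fit through the younger mice.

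CB followed another course. From E17.5 to P7 40 of the 44 members were higher (background 35.6%), with a median of 0.49 where that of all genes was −0.01, and none exceeded 2-fold. E2f8 rose the most (0.99, SE 0.12, adjusted p = 6.26e-07), followed by Cdca3, which triggers mitotic entry (0.84), Aurka, the centrosomal kinase (0.82), and Ube2c (0.80). The 4 members not called were all replication genes, Cdc6 (0.00), Mcm4 (0.07), Mcm6 (0.04) and Gins2 (0.00). The spread between mice was wide beside the rises: in 17 members all 6 P7 mice stood above all 6 E17.5 mice (background 24.3%), and in 27 the periods overlapped. The summed CPM of the members at E17.5 was 2433.5 and 2223.2 in WT replicates 3 and 4 and 2588.6 to 3089.5 in the others, against 3062 to 4121 at P7. Leaving out any 1 mouse gave 38 to 40 members called, with medians of 0.45 to 0.56. How much of the rise rests on replicates 3 and 4 together is not given here.

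From P7 to P35 all 44 members fell in CB (background 39.4%), 42 of them more than 2-fold (background 17.7%), with a median of −5.70. Top2a fell by 8.50 (SE 0.20, adjusted p = 3.16e-17), from 358, 431 and 488 CPM in the lowest, median and highest P7 mice to between 0.809 and 1.88 CPM in adults. Ube2c fell by 8.24 and Mki67 by 8.10. Adult CB levels were near the floor, with 30 members under 1 TPM, so the sizes of the largest falls are uncertain. Aurkb, Birc5, E2f8, Kif23, Plk1 and Ube2c did not pass the low-count filter in adult CB alone. They entered this fit through the younger mice, so for them a fall is not independent of the filter. The members that fell least were both E cyclins, Ccne1 by 0.49 and Ccne2 by 0.31, and then Mcm4 by 1.85 and Pcna by 2.09. Ccne2 was called in WT mice, but in mutant mice it was not called and had the opposite sign. The mitotic members had a median of −6.31 and the replication members one of −3.28. Adult CB held a median of 1.90% of the P7 level over the members, and 35 of the 44 held under 10%.

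Markers of the granule cell precursors of the cerebellum moved over the same interval. Atoh1, the factor that defines these precursors, was 15.7 to 25.8 CPM in WT CB at P7 and 0 CPM in every adult WT library. Barhl1 fell from 92.4 to 108 CPM at P7 to 7.53 to 10.2 CPM in adults, and Mycn from 72.2 to 106 CPM to between 3.6 and 4.19 CPM. Gli1 and Gli2 were also lower in adults, and Ptch1, the sixth gene of the list, was higher (110 to 120 CPM at P7 and 144 to 273 CPM in adults). The summed level of the 6 was 347, 376 and 410 CPM at P7 (lowest, median, highest) and 166, 173 and 307 CPM in adults, most of the adult sum being Ptch1. The part of these cells in the fall of the members was not tested.

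**Figure D2:**
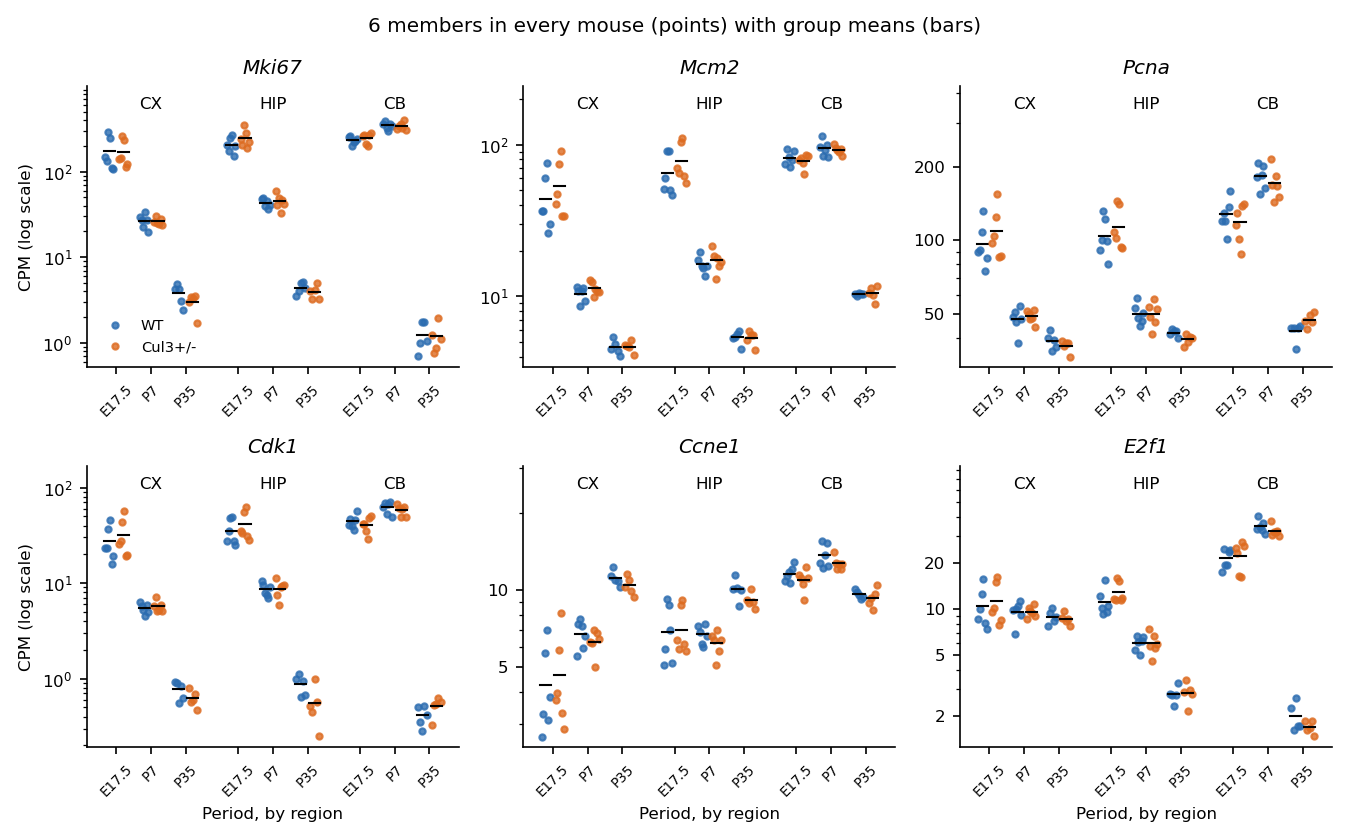
CPM on a log axis of 6 members in every mouse (points, WT blue, Cul3+/- orange) with group means (bars), by period within each region. Mki67, Mcm2, Pcna and Cdk1 fall with age in CX and HIP and peak at P7 in CB, Ccne1 rises with age in CX (WT means 4.25, 6.72 and 11.1 CPM), and E2f1 stays level in CX (10.4, 9.61 and 8.90 CPM).

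The members that departed from the rest were the E cyclins, E2f1 and the replication genes that stayed high in adults. Ccne1 in WT CX was 2.65, 3.54 and 6.96 CPM (lowest, median, highest) at E17.5 and 5.51, 6.93 and 7.67 CPM at P7, and 11.4, 12.3, 10.9, 10.8 and 10.3 CPM in the 5 adults. E17.5 and P7 overlapped and the adults stood above both. E2f1, the activator of S phase genes, was 7.42, 9.26 and 15.8 CPM in CX at E17.5, 6.84, 9.98 and 11.3 CPM at P7, and 7.75, 9.44, 10.1, 8.34 and 8.87 CPM in adults, so the 3 periods overlapped. In HIP it fell by 0.90 and then by 1.08, and in CB by 4.12 after P7, to 2.28, 1.62, 2.63, 1.72 and 1.74 CPM. Pcna was 39.8, 43.2, 35.4, 39.2 and 36.6 CPM in adult CX, 41.5, 43.6, 42.8, 42.5 and 40.0 CPM in adult HIP, and 44, 43.9, 36.0, 44 and 44.9 CPM in adult CB. These ranges overlapped, whereas at P7 the lowest Pcna value in CB (155 CPM) was above the highest in CX (53.9 CPM) and HIP (58.0 CPM).

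**Figure D3:**
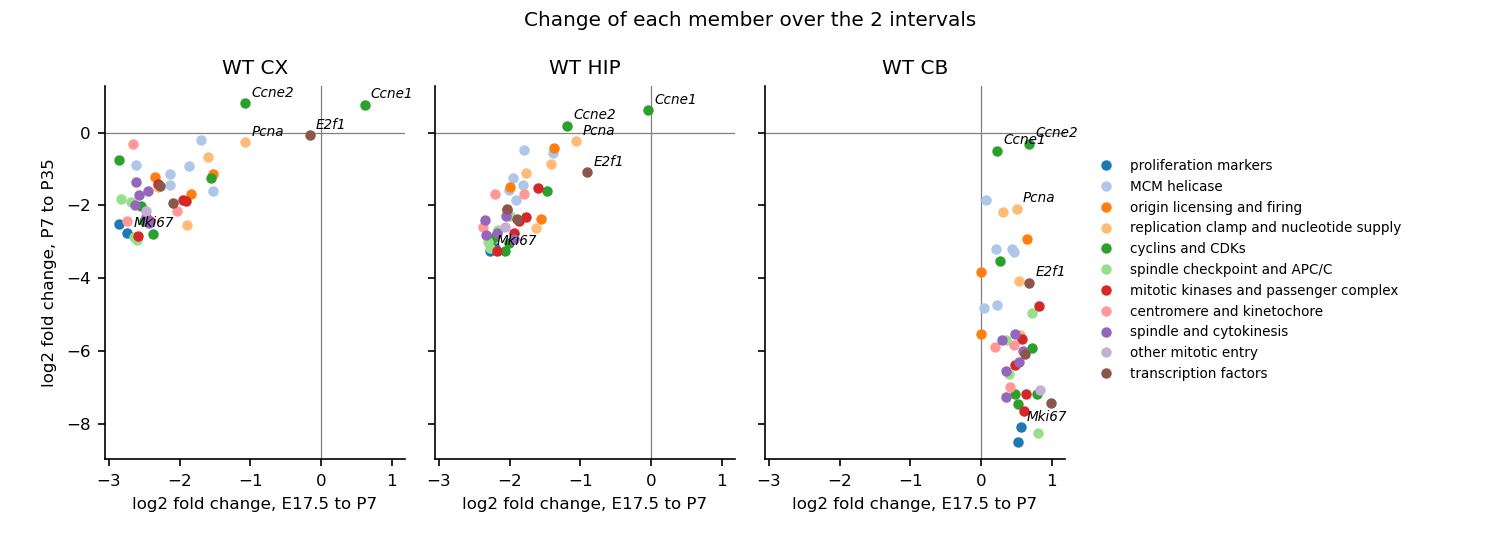
Log2 fold change of each member in WT mice from E17.5 to P7 (horizontal) and from P7 to P35 (vertical), by region and coloured by role. Most CX and HIP members sit at the lower left, all 44 CB members at or right of 0 with falls of up to 8.50, and Ccne1 and Ccne2 sit apart near the top.

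The change with age was then compared between regions, in a fit of all WT libraries with the mouse as a block. From E17.5 to P7 the change in CB differed from that in CX for 44 members (background 69.5%) and from that in HIP for 43 (background 65.7%). From P7 to P35 it differed for 44 in both (background 60.9% and 57.4%). HIP and CX differed for 10 members over the first interval (background 38.5%). Over the second the change was more negative in HIP for 9 members (background 10.2%) and less negative for 2 (background 7.29%). The 9 were led by Ccnb1 (a difference of −2.22, HIP minus CX, on the log2 scale), Kif23, a kinesin of cytokinesis (−1.47), and Cenpa, the centromeric histone (−1.42), and the 2 were Gins2 (1.26) and Mcm6 (1.12). These contrasts share the P7 libraries.

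The next comparison asked where the members were highest within a period, between regions of the same WT mice. The libraries carried the markers of their labelled regions: at E17.5 the summed cerebellum markers (Zic1, Zic2, En2 and Cbln1) were 844 to 1243 CPM in WT CB, 35.2 to 103 CPM in CX and 125 to 332 CPM in HIP. Choroid plexus markers, from tissue that lies beside HIP and CB, reached 4652 CPM in 1 E17.5 WT HIP library and were 6.42 CPM in the lowest. Their part in the results was not tested.

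At E17.5 40 members were higher in CB than in CX (background 31.3%), by a median of 0.76. Of these 7 were higher by more than 2-fold, as were 2383 of all 17793 genes, with Ccne1 (1.56) and Cdc6 (1.38) first. Rrm2, Foxm1, Aurka and Mcm7 were not called. CB was higher than HIP in 19 members (background 25.0%) and HIP higher than CX in 9 (background 24.2%), the latter led by Ccne1 (0.75, SE 0.17), Mcm6 (0.70) and Cdk2 (0.62). These counts depended on which mice were in the fit. Without WT replicate 4 the HIP over CX count was 26 and without replicate 5 it was 5, and the CB over HIP count ran from 8 (without replicate 2 or 6) to 34 (without replicate 4), with 29 without replicate 3, 9 without replicate 5 and 10 without replicate 1. In mutant mice CB over CX gave 23 members (background 32.8%) and CB over HIP gave 2 (background 26.9%).

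At P7 CB stood far above both other regions. All 44 members were higher in CB than in CX by more than 2-fold (background 14.7%, median 3.4). All 44 were also higher in CB than in HIP (background 42.1%, median 2.85). Ube2c differed the most (4.19 over CX and 3.65 over HIP) and Ccne1 the least (1.08 and 1.09). HIP was higher than CX in 38 members (background 27.7%) with a median of 0.62, led by Ccnb1 (0.89) and Bub1b, a spindle checkpoint kinase (0.88), while E2f1 was lower in HIP (−0.70, SE 0.11, adjusted p = 8.61e-05). Foxm1, Ccne1, Rrm2, Pcna and Ccne2 were not called between HIP and CX.

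In adults the regions no longer ranked the members alike. HIP was higher than CX in 9 members (background 25.4%) and lower in 8 (background 25.8%). Gins2 was 1.8, 2.69, 1.98, 2.61 and 2.30 CPM in the 5 adult HIP libraries and 0.368, 0.669, 0.406, 0.685 and 0.543 CPM in CX, a difference of 2.08 (SE 0.16, adjusted p = 2.4e-07). Mcm6 was 28.2, 27, 26.6, 23.2 and 21.6 CPM in HIP and 10.0, 9.34, 9.15, 7.46 and 8.48 CPM in CX (1.49, SE 0.08, adjusted p = 9.56e-09). Neither overlapped between the regions. Tyms (1.08), Cenpe (0.86), Cenpf (0.75) and Aurka (0.69) were also higher in HIP, and E2f1 (−1.68), Ccnb1 (−1.30), Cdt1 (−0.90) and Kif23 (−0.81) were lower.

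Adult CB was higher than CX in 11 members (background 38.7%) and lower in 25 (background 36.4%). The calls divided by role: of the 13 replication members 9 were higher and 3 lower, and of the 19 mitotic members 1 was higher, Cdc20 (0.95), and 13 lower. Of the mitotic members 14 passed the low-count filter in adult CB alone, and Aurkb, Birc5, Kif23, Plk1 and Ube2c did not. Those entered this fit through the other regions, so for them a lower level in CB is not independent of the filter. The division was not recounted without them. Cdt1, which licenses origins, was 4.88, 4.14, 4.16, 4.09 and 4.56 CPM in adult CB and 1.41, 1.66, 1.78, 1.37 and 1.36 CPM in CX (1.52, SE 0.12). Mcm2, a helicase subunit, was 10.4, 10.0, 10.6, 10.4 and 10.4 CPM in CB and 4.50, 5.40, 4.81, 4.38 and 4.01 CPM in CX (1.16, SE 0.08). The CB and CX libraries of Cdt1 and of Mcm2 did not overlap. Rrm1, the large subunit of ribonucleotide reductase (0.92), and Ccne2 (1.28) were higher as well, and Ccnb1 (−2.66), Kif23 (−2.50), E2f1 (−2.17) and Mki67 (−1.63) lower. Against adult HIP, CB was higher in 8 members (background 38.2%) and lower in 31 (background 36.7%). Cdt1 (2.41) and Ccne2 (1.86) were again first and Top2a (−2.27) and Mcm6 (−2.17) last, and of the mitotic members 1 was higher and 17 lower, of the replication members 6 and 6. The comparisons share the CB libraries, and the limit of the filter holds for both.

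Within E17.5 the mice themselves fell apart by the first letters of their names. Replicates 1 and 2 of both genotypes have names that begin with S2, replicates 3 and 4 with S3, and replicates 5 and 6 with S4. The labels do not say what these letters stand for, and the test of them was added after the values were seen. With genotype as a covariate the name prefix was called for 44 of 44 members in CX (background 42.7%), for 41 in HIP (background 30.1%) and for 42 in CB (background 27.8%). In CX the S3 mice were higher than the S2 mice by a median of 0.88 and the S4 mice lower than the S3 mice by a median of −1.27. In CB the sign was opposite, with S3 below S2 by a median of −0.32 and S4 above S3 by 0.45, and the prefix effect differed between the 3 regions for 44 members (background 33.5%).

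Ube2c shows the pattern. In CX its WT replicates 1 to 6 were at 11.6, 15.6, 22.7, 32.3, 10.1 and 9.60 CPM and its mutant replicates at 16.4, 15.9, 29.7, 39.5, 12.6 and 12 CPM. In CB the WT replicates were at 26.7, 31.1, 25.2, 24.8, 31 and 35.1 CPM and the mutant replicates at 25.5, 26.6, 18.6, 17, 29.8 and 28.3 CPM. Replicates 3 and 4 were thus the highest of each genotype in CX and the lowest in CB. All 4 S3 mice stood above the other 8 in 43 members in CX (background 10.5%) and in 40 in HIP (background 9.20%), and below them in 17 members in CB (background 5.35%). The summed CPM of the 44 members was 2447 to 3137 in the S3 mice and 1144 to 1754 in the others in CX, 2844 to 3318 against 1678 to 2280 in HIP, and 1878 to 2433 against 2579 to 3090 in CB.

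Markers of cell types moved with the same mice. The summed level of 5 markers of oligodendrocyte precursors, which appear late in gestation, was 22 to 30.3 CPM in the S3 mice in CX and 64.0 to 120 CPM in the others. In HIP it was 22.03 to 46.85 against 58.42 to 111 CPM. In CB it was 93.62 to 126.1 against 155 to 203.9 CPM, with 3 of the 5 markers below in all 4 S3 mice (background 5.35%). No marker was at 0 throughout. Of 6 markers of intermediate progenitors and neuroblasts, 5 were above in all 4 S3 mice in CX (background 10.5%, summed level 4705 to 6216 against 3141 to 4079 CPM). In HIP 4 were above (background 9.20%), but the summed levels overlapped (3099 to 4327 against 2805 to 4261 CPM). Of 6 radial glia markers, 3 were above in CX (901 to 1461 against 683 to 964 CPM) and 3 in HIP (1561 to 1955 against 950 to 1425 CPM), with the same backgrounds. Of 6 granule cell precursor markers 2 were above in CX (179.9 to 203.6 against 135.5 to 165.2 CPM) and 2 in HIP (155.5 to 182.2 against 121.8 to 154.9 CPM). In CB, where the members were lower in the S3 mice, 3 of these 6 were below (background 5.35%, summed level 250.4 to 286 against 316 to 371 CPM). There 3 of 4 cerebellum markers were below as well (764 to 845 against 941 to 1243 CPM), and the neuroblast markers were higher in sum (1691 to 1922 against 1253 to 1683 CPM). The part of these cells, or of anything else the prefix marks, in the levels of the members was not tested. Without the S3 mice 35 members were called higher in HIP than in CX at E17.5 (background 23.4%) and 43 higher in CB than in HIP (background 24.9%).

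At P7, where names begin with C1, C2 or C4, the C2 mice were lower than the C1 mice in 39 members in CX, 44 in HIP and 44 in CB, with medians of −0.21, −0.30 and −0.19. At an unadjusted p under 0.05 there were 22 members in CX (background 14.4%), 28 in HIP (background 9.78%) and 28 in CB (background 17.8%). Those called by edgeR's quasi-likelihood test were Cdk1 (−0.33) and Mcm4 (−0.28) in CX and Birc5 (−0.33), Mcm3 (−0.30), Mcm6 (−0.28), Mcm4 (−0.25) and Mcm2 (−0.24) in CB, with 0 in HIP. Of all genes, 535 of 18786 were called in CX, 632 of 18719 in CB and 10 of 18989 in HIP.

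**Figure D4:**
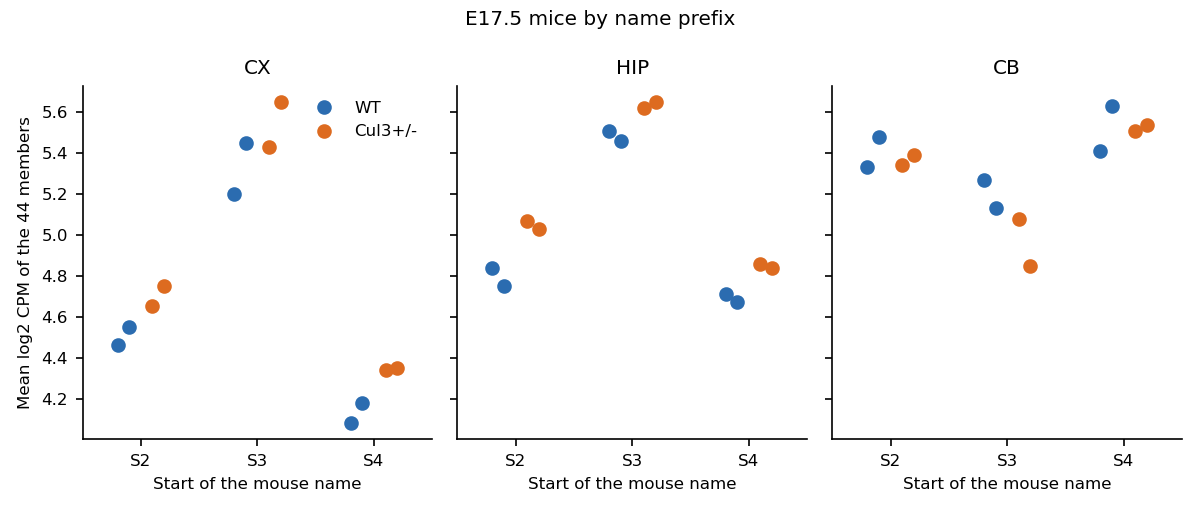
Mean log2 CPM of the 44 members in each E17.5 mouse, by the start of its name, in CX, HIP and CB (WT blue, Cul3+/- orange). The 4 S3 mice are highest in CX and HIP, with CX summed levels of 2447 CPM or more, and lowest in CB.

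The comparison the study was built for is that of Cul3+/- with WT mice. Cul3 itself was 161 to 218 CPM in the WT libraries and 85.5 to 125 CPM in the mutant libraries over the 9 combinations, with no overlap between genotypes within any of them. Of the members tested, 0 were called by edgeR's quasi-likelihood test in any of the 9 combinations, and 0 by DESeq2 and by edgeR's likelihood ratio test. By the quasi-likelihood test 1 gene of all those tested (16594 to 17754 genes) was called in each combination. At that share 0 members called does not set the members apart from other genes. All 44 members passed the filter on low counts in 7 combinations, 42 in adult HIP (without E2f8 and Ube2c) and 38 in adult CB (without Aurkb, Birc5, E2f8, Kif23, Plk1 and Ube2c). At an unadjusted p under 0.05 there were 0 members in E17.5 CX (background 1.60%), 0 in E17.5 HIP (2.25%) and 0 in E17.5 CB (3.45%), 1 in P7 CX (3.06%), 1 in P7 HIP (4.97%) and 0 in P7 CB (4.77%), and 3 in adult CX (3.51%), 5 in adult HIP (5.95%) and 2 in adult CB (13.9%).

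The median log2 fold change of the members, mutant over WT, was 0.20 in E17.5 CX, 0.19 in E17.5 HIP and −0.06 in E17.5 CB, 0.09, 0.06 and −0.07 at P7, and −0.09, −0.10 and 0.05 in adults, where that of all genes was within 0.01 of 0 in each. These medians moved with single mice. In E17.5 CX the median was 0.01 without mutant replicate 4 and 0.40 without WT replicate 4, and in E17.5 HIP it was 0.06 without mutant replicate 4 and 0.31 without WT replicate 3. It turned sign without mutant replicate 4 in E17.5 CB (0.01) and without mutant replicate 1 in P7 HIP (−0.02). In E17.5 CX 43 of the 44 were higher in mutant mice and in P7 CB 41 were lower. The members share the libraries, and no single member was called. Cdca3 had the smallest p in E17.5 CX (0.35, SE 0.33, adjusted p = 0.991), Mki67 in E17.5 HIP (0.25, SE 0.17, adjusted p = 0.943) and Ube2c in E17.5 CB (−0.24, SE 0.14, adjusted p = 0.989). At P7 these were Ccnb2, a mitotic cyclin, in CX (0.29, SE 0.11, adjusted p = 0.905), Foxm1, the activator of G2 genes, in HIP (0.34, SE 0.14, adjusted p = 0.837) and Ube2c in CB (−0.16, SE 0.08, adjusted p = 0.996).

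Adult values were low. WT and mutant mice did not overlap in 1 member in CX (background 0.632%), 2 in HIP (background 0.853%) and 1 in CB (background 3.06%). Birc5, survivin of the passenger complex, was 0.735, 0.749, 0.749, 0.685 and 0.875 CPM in the WT CX libraries and 0.268, 0.537, 0.482, 0.416 and 0.613 CPM in the mutant ones (−0.69, SE 0.23, adjusted p = 1). Ccnb1 in HIP was 1.29, 1.49, 1.51, 1.67 and 1.26 CPM in WT and 0.658, 1.15, 1.20, 1.16 and 1.01 CPM in mutant mice (−0.47, SE 0.18, adjusted p = 0.818). Prc1, a spindle midzone protein, had the smallest p in HIP (−0.38, SE 0.14, adjusted p = 0.818) with overlapping groups. In Birc5 and Ccnb1 the mutant mice lay below the WT mice without overlap. Cdt1 in HIP (0.717 to 0.880 CPM in WT and 0.947 to 1.33 CPM in mutant mice) and Ect2, which directs cytokinesis, in CB (0.655 to 1.03 against 1.04 to 1.25 CPM) were the 2 members above without overlap, and were named after their values were seen. In CB, Ccnb2 had the smallest p (0.46, SE 0.19, adjusted p = 0.352).

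Same-numbered WT and mutant mice of E17.5 CX deviated together from their group means (median correlation 0.474). In E17.5 HIP (0.335) and CB (0.292) the median was lower and at least 1 pair was negative. The replicate number was also fitted as a block, here for E17.5 CX. With the block 13 of the 44 members were called, all higher in mutant mice, against 0.621% of the 16594 genes tested (edgeR's quasi-likelihood test). They were Cdca3 (0.35, SE 0.05, adjusted p = 0.0324), Nusap1, a spindle protein (0.28), Mcm5 (0.25), Cdc20 (0.28), Mcm2 (0.27), Aurkb (0.31), Bub1b (0.25), Prc1 (0.21), Ccna2 (0.24), Ccnb1 (0.27), Tpx2 (0.19), Mcm3 (0.27) and Ect2 (0.27). Mki67 was not among them (0.00, SE 0.05, adjusted p = 0.981), nor was Pcna (0.15, adjusted p = 0.139).

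The values behind the block were as follows. Cdca3 was 15, 16.8, 26.2, 34.4, 11.6 and 12.2 CPM in WT replicates 1 to 6 and 19.0, 22.4, 35.1, 42.8, 15.8 and 14.3 CPM in the mutant replicates of the same numbers. Mcm5 was 34.3, 35.6, 53.1, 66.4, 25.5 and 27.9 CPM in WT and 39.0, 43.8, 63.1, 80.6, 32.9 and 31.7 CPM in mutant mice. In both the mutant mouse was the higher of each pair while the groups overlapped widely. Mki67 was 148, 135, 293, 244, 109 and 108 CPM in WT and 142, 144, 263, 233, 113 and 124 CPM in mutant mice, higher in 3 of 6 pairs. Of the 44 members, 36 in E17.5 CX were higher in the mutant mouse of all 6 pairs (background 4.78%), 24 in E17.5 HIP (background 3.97%) and 0 in E17.5 CB, where 3 were lower in all 6 (background 4.26%). The summed level of 7 erythroid markers, from blood in the tissue, was also higher in the mutant mouse of all 6 pairs in HIP (521 to 1111 CPM in WT and 700.5 to 1461 CPM in mutant mice) and of 5 of 6 pairs in CX (559 to 1070 and 664 to 1432 CPM). It was higher in 5 of 6 pairs in CB too. In CX the sums of radial glia, granule cell precursor and microglia markers were likewise higher in 5 of 6 pairs. Those of neuroblast and oligodendrocyte precursor markers were higher in 2 of 6. In HIP the radial glia sum was higher in 4 of 6 pairs. The part of these cells in the paired differences was not tested. The labels do not say what the replicate number stands for. By the same test 0 were called when the block was the name prefix (35 at an unadjusted p under 0.05, background 6.99%), and 0 when the S3 mice were left out with the replicate block kept (36 at an unadjusted p under 0.05, background 7.04%). In E17.5 HIP the replicate block called 0 (31 at an unadjusted p under 0.05, background 9.98%) and in E17.5 CB 0 (8, background 9.02%), where in E17.5 CX it left 36 at that level (background 14.2%).

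Whether the effect of genotype differed between regions or between periods was tested directly, and 0 members were called by edgeR's quasi-likelihood test in any of the 6 tests. Of all genes tested 0 were called as well, except for 1 gene for genotype by region in adults. At an unadjusted p under 0.05 there were 0 members for genotype by region at E17.5 (background 2.44%), 4 at P7 (4.47%) and 8 in adults (15.5%), and 0, 0 and 2 for genotype by period in CX, HIP and CB (2.04%, 4.09% and 13.1%).

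**Figure D5:**
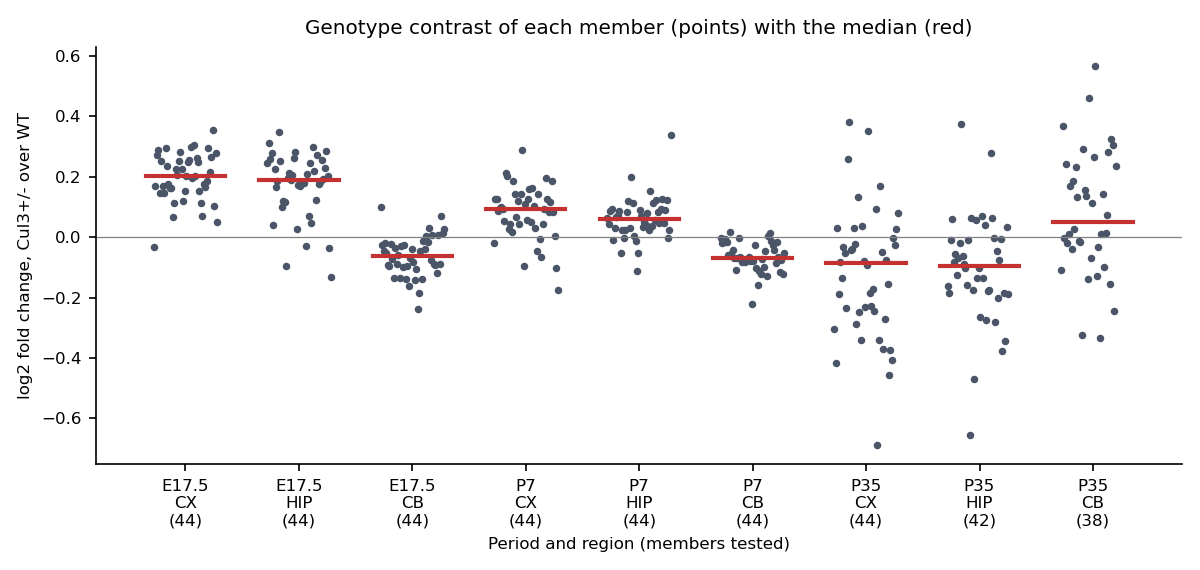
Log2 fold change of each member tested, Cul3+/- over WT (points), with the median (red line), for the 9 combinations of period and region and the number of members tested in brackets. Medians lie between −0.10 and 0.20, the points spread most in adults (from −0.69 to 0.57), and no point passed the test.

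Other genes of the cycle, none of them members, were read from 5 further lists. In WT CX from E17.5 to P7 31 of 31 genes of an S phase list and 32 of 34 of a G2 and mitosis list were lower, with medians of −1.37 and −2.03, where 40.6% of all genes were lower. In CB over the same interval 19 S phase genes were higher and 3 lower, and 27 G2 and mitosis genes higher and 4 lower, where 35.6% of all genes were higher and 6593 of 18626 lower. From P7 to P35 31 and 32 of them were lower, where 39.4% of all genes were. The cyclins and kinases of G1 changed less evenly. In CX Cdk4 fell by 2.44, Cdk6 by 1.79, Ccnd2 by 1.54 and Ccnd3 by 0.40 from E17.5 to P7, and Ccnd1, cyclin D1, rose by 0.19. In CB after P7 Ccnd2, the cyclin D of granule cell precursors, fell by 5.42 and Cdk6 by 4.92, and Ccnd3 was not called.

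Of 7 inhibitors of cyclin-dependent kinases 6 passed the filter on low counts in the fits of age. In CX from E17.5 to P7 the 3 that rose were Cdkn1a, p21 (2.62), Cdkn2b (1.5) and Cdkn2d (1.19), and the 3 that fell were Cdkn1c, p57 (−2.42), Cdkn1b, p27 (−1.75), and Cdkn2c (−1.42). In CB over the same interval Cdkn1b (1.31), Cdkn2c (1.40), Cdkn2b (1.12) and Cdkn2d (0.30) rose and Cdkn1a (−0.50) and Cdkn1c (−1.44) fell. The inhibitors p27 and p18 (Cdkn2c) therefore moved with the members in both regions, down in CX and up in CB. Of the pocket proteins, E2F factors and partners of the DREAM complex, which represses cell cycle genes in resting cells, 10 of 14 were lower and 0 higher in CX from E17.5 to P7, and 9 were higher and 3 lower in CB, against the same shares of all genes (40.6% lower in CX, 35.6% higher in CB). In the other direction 7681 of 18620 genes were higher in CX and 6593 of 18626 lower in CB. For genotype 0 genes of these lists were called in any of the 9 combinations by edgeR's quasi-likelihood test, where 1 gene of all those tested was called in each.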

How the data were processed

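RNA was measured in 3 brain regions of WT and Cul3+/- mice. Per the methods and the submitters' processing notes, ribodepleted stranded paired-end libraries were trimmed (cutadapt 1.14), aligned (STAR 2.5.3a, GRCm38.p5) and quantified with RSEM 1.3. The deposited file holds the expected counts per gene that the authors obtained this way. Of its values, 5.76% were not whole and were rounded here. The 44 members and all other gene lists were chosen with earlier results of these data known. Genes were kept by edgeR's filter (minimum count 10, total 15), scaled by TMM and tested with the quasi-likelihood test (edgeR 4.0.16, R 4.3.3), with Benjamini-Hochberg adjustment over all genes tested and calls at an adjusted p under 0.1. TPM were computed here from the counts and each gene's total exon length. Periods and genotypes were compared within a region, and regions with the mouse as a block. The step was tested on simulated data. Alternatives were upper quartile scaling, DESeq2 1.42.0, the likelihood ratio test, no low-count filter, RUVs with 3 and 5 factors, a block or its removal, mutant mice, and leaving out each replicate. The named genes are, per genotype comparison, taken from the 3 members with the smallest p, mostly the first alone. Members without overlap between genotypes, members called with the replicate block and a few set beside them were also named. Per period or region comparison they are a choice from the largest and smallest change in each role and from a fixed set of members. In E17.5 CX alone all 6 pairs of same-numbered WT and mutant mice had a correlation of their deviations over 0.1 (lowest 0.113, median 0.474). In the other 8 combinations at least 1 pair did not. The median of same-numbered pairs was also above that of other pairs in E17.5 HIP (0.335 against −0.03) and E17.5 CB (0.292 against −0.02). Same-numbered E17.5 mice share a name prefix, so number and prefix cannot be told apart in these correlations. All libraries held 15126114 counts or more.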

Additional observations from a re-analysis of the deposited data

Results flagged for a closer look

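In 234 groups of libraries tested, 5 had 1 library far from the others by Dixon's test, where chance gives about 1 in 20. Pcna in adult WT CB was 36.0 CPM in replicate 3 and 43.9 to 44.9 CPM in the others. Ccne1 in P7 mutant CB was 14.04 CPM in replicate 1 and 12.1 to 12.8 CPM in the others. E2f1 was 37.7 CPM in the same library and 30.1 to 32.4 CPM in the others. Aurkb in P7 mutant CB was 30.9 CPM in replicate 6 and 37.1 to 40.4 CPM in the others. Foxm1 in adult WT HIP was 0.646 CPM in replicate 6 and 1.33 to 1.45 CPM in the others.

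The change with age differed between regions by a test of the difference itself. From E17.5 to P7 it differed for 44 members between CB and CX (background 69.5%), 43 between CB and HIP (65.7%) and 10 between HIP and CX (38.5%). From P7 to P35 the counts were 44 (60.9%), 44 (57.4%) and 11 (3559 of all 20298 genes). The effect of the name prefix at E17.5 differed between the 3 regions for 44 members (background 33.5%).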

How the results depend on the processing

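Of 576 recomputed values 550 kept their direction and side of the threshold (counts within 1.5 times). Among members called in the age and region comparisons, Ccne2 (CB, P7 to P35) and Nusap1 (adult CB over CX) changed sign in mutant mice. For genotype in E17.5 CX, 0 members called became 13 with the replicate block (background 0.621%), 16 with the block in DESeq2 and 25 with it in the likelihood ratio test. In E17.5 HIP, with the same mice, the correlations of same-numbered mice had a median of 0.335 but a lowest of −0.257, and the block gave 0, 5 with DESeq2 and 2 with the likelihood ratio test. RUVs with 5 factors called 1 member in P7 CB and 1 in adult CB. The share of all genes called is not given here for DESeq2, the likelihood ratio test or RUVs. Their counts of members therefore cannot be set against a background. The block changed no other genotype call. Leaving out each replicate called 0 by genotype throughout.

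At E17.5 HIP over CX gave 9 members, 16 with upper quartile scaling, 16 with DESeq2, 15 with the likelihood ratio test, 5 with no replicate block, 35 without the S3 mice, and from 5 (without replicate 5) to 26 (without replicate 4) on leaving out a mouse. CB over CX gave 40, and 23 in mutant mice. CB over HIP gave 19, 10 with no replicate block, 2 in mutant mice, 43 without the S3 mice, and from 8 (without replicate 2) to 34 (without replicate 4). Region by period for HIP over CX from E17.5 to P7 gave 10, 6 with no low-count filter and 6 with no replicate block. The cause of these moves was not tested. With either assignment of the 2 disputed adult mice 0 members were called by genotype.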
